A study of Bos taurus with 252 samples.

Results

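Ceftiofur (CEFT) was compared with oxytetracycline (OXYT) in the whole blood of feedlot steers, using only the libraries of these treatments, all of which were sequenced on lane 3. The comparison took 12 of the 42 steers of the series, 6 per treatment, with 6 libraries from each (72 in all), drawn before treatment on day 0 and again after 3, 7, 14, 21 and 56 days. CEFT steers received ceftiofur once on day 0, under the skin at the base of the ear, at 6.6 mg per kg as ceftiofur equivalents. OXYT steers received oxytetracycline once on day 0, under the skin of the neck, at 4.1 mg per kg. All were crossbred steers that had earlier been given tildipirosin (a macrolide antibiotic), a trenbolone acetate and estradiol implant, vaccines and antiparasitic drugs, and all ate the same starter diet. Each treatment was kept in 1 pen, and on every sampling day the CEFT pen was processed just before the OXYT pen, which came last. Treatment, pen, injection site and place in the sampling order therefore cannot be told apart. Untreated steers were sequenced on other lanes and were not used, so each result is a difference between both drugs and not an effect of either one.

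Ceftiofur is a cephalosporin, a beta-lactam that blocks the building of the bacterial cell wall. Oxytetracycline binds the small subunit of the bacterial ribosome and stops protein synthesis, and tetracyclines can also act on the mitochondrial ribosome of animal cells, which descends from a bacterial one. RNA from whole blood comes mainly from neutrophils, lymphocytes, monocytes, platelets and young red cells, so a level can move with the number of cells of a type or with the RNA in each cell. Those alternatives cannot be told apart in bulk blood.

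The libraries held 30.5 to 57 M counts each (median 40.9 M). Hemoglobin genes took 0.0113 to 13.1% of a library (median 0.822%), and TMM scaling factors lay between 0.854 and 1.15. Of 33282 genes in the table, 6389 had no count in the 72 libraries and 19056 passed the filter on low counts and were tested. Levels are given as CPM (counts scaled to the TMM-adjusted size of each library), with their SD over 6 steers. The OXYT day 7 library of steer Oxyt5 stood apart from the rest. Its genes lay a root mean square of 0.733 on the log2 scale from the values fitted by steer and by treatment and day. The other 71 libraries lay at 0.461 to 0.644. In the Oxyt5 library the summed ribosomal protein genes reached 83500 CPM, against 38400 to 59100 CPM in the other 5 OXYT steers of day 7. Several counts of genes that rest on day 7 are therefore given with and without that library. Values of single genes, counts of signs and most gene-list counts that use day 7 include it.

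The first principal component of the 72 libraries, which held 9.85% of the variance, moved with time in both groups and at different times. It rose with genes such as TAOK1, LYST and TFRC, the transferrin receptor, and fell with SIGLEC5, CEBPB and the hemoglobin gene HBA1. From day 0 to day 3 it dropped in 6 of 6 CEFT steers, by a median change of -28.1 (-51.6 to -15). In OXYT steers the median change was -9.41 (-12.2 to 13.8), with 4 of 6 steers down, so the groups did not overlap. From day 3 to day 56 the order turned: the OXYT steers changed by -54 (-70.8 to -36.8) and the CEFT steers by -6 (-23 to 12), again without overlap. By day 56 both groups lay below their day 0 position, with median changes of -36 for CEFT and -64.6 for OXYT. The OXYT mean started higher, at 40 against 22.3 in CEFT on day 0. On day 56 the means were -17.9 in OXYT and -16.6 in CEFT. The component was built from these libraries, so its changes are given as a description with no test.

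**Figure D1:**
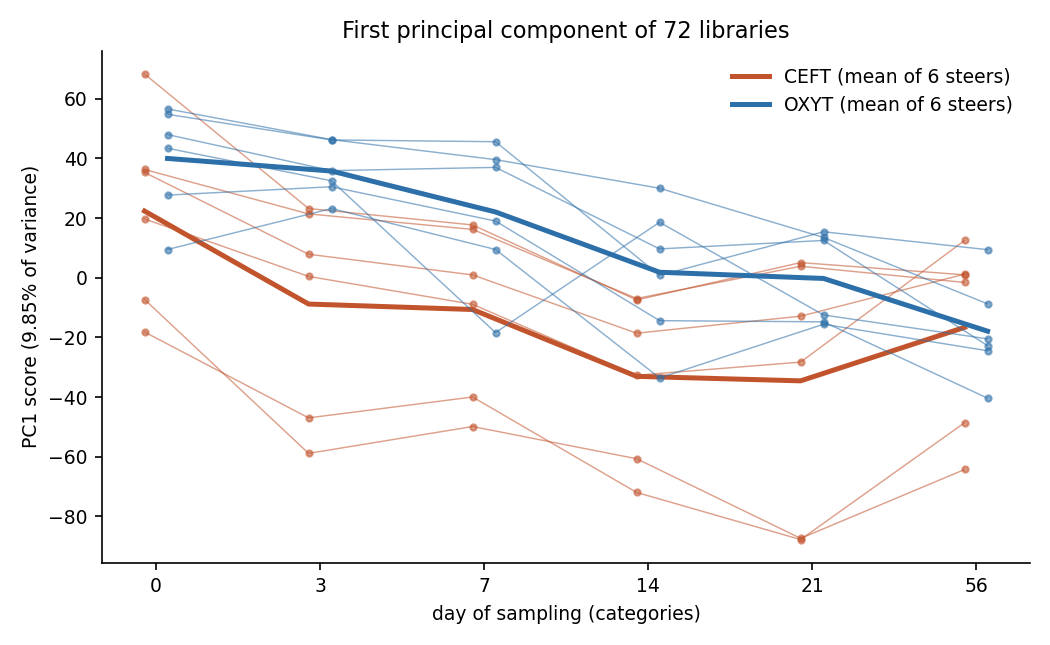
First principal component (y axis, score) against the day of sampling (x axis) for each of the 12 steers (thin lines), with the mean of 6 steers as a thick line, CEFT in red and OXYT in blue. The CEFT steers dropped by day 3, with a median change of -28.1, whereas most of the OXYT drop, a median of -54, came between day 3 and day 56.

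The same timing appeared when each gene was tested against day 0 within steer (edgeR quasi-likelihood test, FDR 0.1). In CEFT steers 5497 genes (28.8% of those tested) differed from day 0 on day 3, against 590 (3.10%) in OXYT steers. On day 7 the counts were 5442 (28.6%) in CEFT and 1877 (9.85%) in OXYT. On days 14 and 21 CEFT had 8608 (45.2%) and 8337 (43.8%), and OXYT 5627 (29.5%) and 5716 (30%). On day 56 the order of the counts had turned, with 5522 (29%) in CEFT and 8702 (45.7%) in OXYT. These counts describe each group on its own, and a difference between them is not a test of the treatments.

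Compared directly, CEFT and OXYT had few genes past the FDR threshold of edgeR on any single day. On day 0, before treatment, 0 genes differed at FDR 0.1 by edgeR (0%), and 505 had an unadjusted p below 0.05. On day 3 there were 2 calls (0.0105%), with 3227 genes below the unadjusted limit. Day 7 gave 98 calls (0.514%), 48 higher and 50 lower in CEFT, with 2950 genes below the unadjusted limit. Days 14, 21 and 56 gave 0 calls each (0%), with 1734, 1137 and 1447 genes at an unadjusted p below 0.05. The DESeq2 counts, which were higher on each day, stand with the other settings in the closing section. The levels of the 6 CEFT and the 6 OXYT steers did not overlap for 16 genes before treatment (0.0840%). After it, the same count was 217 for day 3 (1.14%), 297 for day 7 (1.56%) and 61 for day 14 (0.320%), and it was 26 (0.136%) and 41 (0.215%) for the last samplings.

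Taking each steer's own day 0 as its reference, the change to day 3 differed between groups for 3 genes (0.0157%) and the change to day 7 for 181 genes (0.950%), of which 103 rose more or fell less in CEFT. The changes to days 14, 21 and 56 gave 0 calls each (0%), with 1319, 1099 and 1598 genes at an unadjusted p below 0.05 by edgeR. A test over all days at once gave far more. The course over the 6 days differed at FDR 0.05 for 2115 genes (11.1%). Every pair of days was then compared, a step added after that count was seen. Most calls came from pairs that began on day 3 or later and ended on day 56. Such a change subtracts the group difference of its first day. It therefore does not place the difference on day 56, which gave 0 calls on its own. The change from day 3 to day 56 differed for 4234 genes (22.2%), 2129 of them higher in CEFT relative to OXYT (11.2%) and 2105 lower (11%). The change from day 7 to day 56 differed for 4307 genes (22.6%), 2120 higher (11.1%) and 2187 lower (11.5%). From day 14 to day 56 there were 3067 genes (16.1%) and from day 21 to day 56 there were 2107 (11.1%). Between the earlier days there were 392 from day 3 to day 7 (2.06%), 23 from day 3 to day 14 (0.121%), 1 from day 7 to day 21 (0.00525%), and 0 for days 3 to 21, 7 to 14 and 14 to 21 (0%). All pairs ending on day 56 share its libraries and are not independent of each other.

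**Figure D2:**
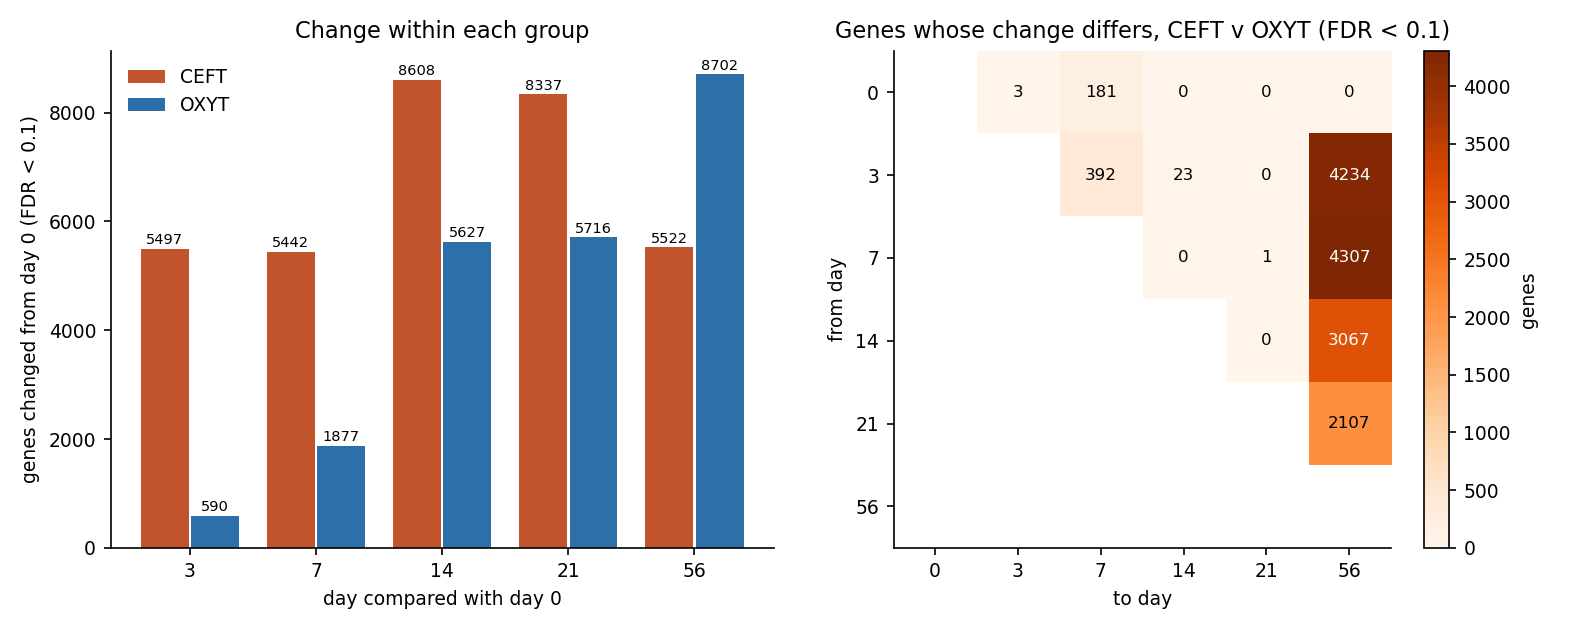
Left, genes changed from day 0 within CEFT (red) and within OXYT (blue) at FDR 0.1 (y axis, number of genes) by day (x axis). Right, genes whose change differed between the groups for each pair of days (rows, first day; columns, second day; shade, number of genes), where the column of day 56 holds the largest counts, 4234 from day 3 and 4307 from day 7, with 0 from day 0.

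On day 3, NPDC1 and SOAT1 separated the groups. NPDC1, a membrane protein first described in neural cells, was at 17 to 25 CPM in CEFT (median 20.8) and at 10.2 to 12.9 in OXYT (median 11.8). No OXYT steer reached the lowest CEFT steer, and the CEFT level was higher by 0.84 on the log2 scale (SE 0.12, edgeR FDR 0.0844). Its day 0 levels overlapped, at 6.56 to 16 CPM in CEFT and 8.14 to 11.2 in OXYT. SOAT1, which esterifies cholesterol for storage in lipid droplets, ran the other way, at 54.4 to 79.4 CPM in CEFT (median 67) and 96.4 to 124 in OXYT (median 111). Its log2 difference was -0.72 (SE 0.10, FDR 0.0844), and on day 0 the groups had overlapped at 62.7 to 138 and 73.7 to 121 CPM. The gene of next smallest p, RIDA, a deaminase that clears reactive imines, had a log2 difference of -0.87 (SE 0.14) that missed the threshold (FDR 0.197). Leaving out a steer left 0 calls on day 3 in 10 of the 12 fits, whereas 525 genes were called without Ceft8 and 3 without Ceft4.

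The 3 genes whose change from day 0 to day 3 differed were MYOZ1, PYGM and ASIC1, all higher in CEFT. PYGM, the muscle form of glycogen phosphorylase, stood at 13.6 to 73.7 CPM in CEFT on day 3 (median 31.9) and at 5.23 to 17.2 in OXYT (median 9.27). On day 0 both groups had spanned about the same range, 10.6 to 28.2 and 5.67 to 28.5 CPM. The difference in change was 1.31 on the log2 scale (SE 0.27, edgeR FDR 0.0963). MYOZ1, a protein of the muscle Z-disc, differed by 2.86 (SE 0.59, FDR 0.0963), but only steers Ceft5 and Ceft10, at 6.43 and 8.25 CPM, lay above 1 CPM on day 3. Without Ceft5 its FDR was 0.176 and without Ceft10 it was 0.277. ASIC1, an acid-sensing ion channel, was at 3.10 to 5.16 CPM in CEFT and 1.60 to 3.24 in OXYT, a difference in change of 0.98 (SE 0.19, FDR 0.0935). With each of the 12 steers left out in turn, the call was lost in 10 fits for MYOZ1, in 9 for PYGM (FDR up to 0.196) and in 5 for ASIC1 (FDR up to 0.176).

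Other skeletal muscle genes were present in the same libraries. The summed level of the 11 muscle markers on day 3 was 441 CPM in Ceft10 and 383 CPM in Ceft5, against 19.9 to 62.9 in the other 4 CEFT steers and 18 to 38.7 in OXYT. Skeletal actin, ACTA1, reached 155 CPM in Ceft10 and 153 in Ceft5, and lay between 0 and 6.61 CPM in the other 10 steers. On day 3 the log2 differences of all 11 markers were positive, with a median of 5.42 against 0.01 over all genes, and none was called. The part of muscle RNA in the PYGM and MYOZ1 differences was not tested.

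Day 7 had the highest count of the single days in this test, and it grew when the Oxyt5 library was left out. Without that library 1961 genes differed (10.3%), 939 higher and 1022 lower in CEFT, and all 98 of the genes called with it were among them. For 80 of the 98 genes the 6 CEFT and 6 OXYT levels did not overlap, against 297 of all genes tested (1.56%). The median log2 difference of the 98 genes on day 7 was 0.554 in size, against 0.103 in the same direction on day 0. The 98 genes were chosen by the day 7 test on these same libraries, so both values follow in part from that choice. The change from day 0 to day 7 differed for 1777 genes without the library (9.33%), and 43 of the 98 day 7 genes were also called for that change with it. The count rested on other steers too: leaving out any one of Ceft3, Ceft4, Ceft5, Ceft6, Oxyt4 or Oxyt9 left 0 calls on day 7, leaving out Oxyt1 left 1 and leaving out Oxyt6 left 4. For the change from day 0 to day 7 the 181 genes became 1 without Ceft4, Oxyt2 or Oxyt4, 6 without Ceft5, 9 without Oxyt9 and 27 without Ceft8.

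Among the 98 genes, GSDMD, BAK1 and RIPK3 were higher in CEFT. They are picked here after their values were seen, and no list of cell death genes was counted. GSDMD, which forms the membrane pore of pyroptosis, was at 175 to 240 CPM in CEFT (median 199) and 119 to 161 in OXYT (median 141). The groups did not overlap, and the log2 difference was 0.55 (SE 0.10, FDR 0.0689). On day 0 GSDMD had been level, at 161 ± 18.9 CPM and 158 ± 21.3 CPM (SD, n = 6 each). BAK1, a pore former of the mitochondrial outer membrane, stood at 174 ± 15.2 against 127 ± 11.8 CPM (0.45, SE 0.09, FDR 0.0810). RIPK3, a kinase of necroptosis, stood at 84.7 ± 11.2 against 59.3 ± 6.55 CPM (0.51, SE 0.10, FDR 0.0901), with the groups just touching.

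Also chosen after their values were seen, SATB1, ZFP36L2, ZEB1, CD226 and RAB27A were lower in CEFT on day 7. SATB1, a chromatin organiser of T cells, lay at 84.3 to 115 CPM in CEFT (median 95.4) and 120 to 195 in OXYT (median 137), with no overlap (log2 difference -0.58, SE 0.12, FDR 0.0906). ZFP36L2, an RNA-binding protein that shortens the life of AU-rich messages, was at 216 ± 28.2 against 316 ± 42.5 CPM (-0.55, SE 0.12, FDR 0.0906). Before treatment SATB1 had stood at 99.5 and 108 CPM, and ZFP36L2 at 317 and 311 CPM. Against those levels, SATB1 on day 7 was higher in OXYT and near its start in CEFT, and ZFP36L2 was lower in CEFT and near its start in OXYT. ZEB1, a repressor of transcription, and CD226, an activating receptor of T and NK cells, differed by -0.69 (SE 0.14) and -0.76 (SE 0.16), both at FDR 0.0901. RAB27A, which docks secretory granules, stood at 81 ± 18.2 against 201 ± 46.4 CPM (-1.31, SE 0.19, FDR 0.0689), and its day 0 means already stood at 107 and 168 CPM.

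Several of the day 7 genes with the largest fitted differences were near 0 in some libraries and expressed in others of the same group. DPY19L3, a mannosyltransferase, had no count in 5 of 6 CEFT libraries and 0.052 CPM in the sixth, whereas OXYT spanned 0 to 12.9 CPM with 2 steers at 0. FAM133B spanned 0 to 10.7 CPM in CEFT and 0 to 0.154 CPM in OXYT. SVIP, an inhibitor of endoplasmic reticulum degradation, was lower in CEFT (-3.05, SE 0.51, FDR 0.0689), at 0.512 to 1.28 against 1.0 to 12.5 CPM. CRYZL1, a quinone oxidoreductase-like gene, differed by -2.13 (SE 0.41, FDR 0.0901). The uncharacterised LOC112446407 was higher in CEFT, at 2.12 to 7.48 against 0.128 to 0.97 CPM (3.60, SE 0.54, FDR 0.0689). LOC515736 differed by -4.76 on day 7 (SE 0.69, FDR 0.0689) and by 5.13 in the other direction before treatment (FDR 1).

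For the change from day 0 to day 7 the largest differences were those of LOC515736 (-10.28), LOC100336208 (-6.62), LOC112446407 (3.81), TCTN3 (-1.66), PXMP2 (1.39) and LOC107131335 (-1.28). PXMP2, a pore protein of the peroxisome membrane, came at 2 levels: on day 0 the OXYT steers stood either at 25.8 to 26.8 CPM or at 63.1 to 65.5 CPM. Members of the gene lists differed by less. NFATC2, the calcium-regulated transcription factor of activated T cells, went from 74.9 ± 8.68 to 58.8 ± 6.46 CPM in CEFT and from 72.6 ± 6.34 to 78.5 ± 10.6 CPM in OXYT, a difference in change of -0.46 (SE 0.11, FDR 0.0601). The clock gene ARNTL differed by -0.41 (SE 0.10, FDR 0.0668) and lay at 11.2 to 16.4 CPM in CEFT and 15.4 to 19.4 in OXYT on day 7. CYC1, cytochrome c1 of respiratory complex III, went the other way, by 0.42 (SE 0.11, FDR 0.0836), together with SDHC of complex II (0.28, SE 0.08, FDR 0.0836) and NDUFA10 of complex I (0.30, SE 0.08, FDR 0.0937).

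The genes whose whole course differed most crossed over between day 7 and day 56. TRMU, which thiolates mitochondrial transfer RNAs, had the smallest p of the course test (FDR 8.78e-06). On day 0 it stood at 41.2 to 55.1 CPM in CEFT (median 45.2) and 38.3 to 53.6 in OXYT (median 41.9). On day 7 CEFT lay at 51.8 to 57.3 CPM (median 55), above every OXYT steer at 38.7 to 45.7 (median 41.4). On day 56 the order had turned, at 52.2 to 59.3 (median 53.6) and 56.8 to 67.4 CPM (median 64). Between those days the CEFT level had peaked on day 14, at 61.4 to 66 CPM, whereas the OXYT level went from 43.1 to 64.6 CPM on day 14 to 51.7 to 57.1 on day 21. The difference in the change from day 7 to day 56, CEFT minus OXYT, was -0.60 on the log2 scale (SE 0.07, FDR 4.36e-07).

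ZNF787, a zinc-finger protein, shared that smallest course FDR of 8.78e-06. It was at 39.8 to 50.6 CPM in CEFT (median 43.5) and 29.5 to 41.2 in OXYT (median 34.9) on day 7, and at 34.1 to 47.9 (median 43.5) and 45.4 to 69.7 (median 58.8) on day 56. The CEFT median was thus the same on both days and the OXYT median higher on day 56, and the difference in change was -0.80 (SE 0.10, FDR 4.36e-07). NDOR1, a diflavin reductase of cytosolic iron-sulfur protein assembly (course FDR 1.03e-05), separated the groups on day 7, with every CEFT steer, at 105 to 129 CPM, above every OXYT steer, at 71.7 to 103. On day 56 its medians were 121 and 146 CPM, with overlap, and its difference in change was -0.81 (SE 0.10, FDR 1.39e-06).

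Of the other genes of smallest course p, PMM1, a phosphomannomutase of the glycosylation pathway, and NUDT16L1, a partner of the DNA repair factor 53BP1, followed the same pattern, both with course FDR 6.37e-05. PMM1 lay at 19.1 to 27.8 CPM in CEFT and 14.2 to 17.7 in OXYT on day 7, without overlap. ZMIZ1, a coactivator of transcription (course FDR 2.13e-05), ran opposite, with means of 51.6 ± 10.2 and 69.7 ± 9.67 CPM on day 7 and 57 ± 8.04 and 43.6 ± 5.09 CPM on day 56. TOP3B, a topoisomerase that also acts on RNA, and NICN1 had differences in change from day 7 to day 56 of -0.73 (SE 0.10) and -0.68 (SE 0.09), both at FDR 1.42e-06. From day 3 to day 56 the genes of smallest p were ZNF787 (-0.66, SE 0.10) and ZNF777 (-0.51, SE 0.08), both at FDR 0.000157, then TEX264, an autophagy receptor of the endoplasmic reticulum (-0.57, SE 0.09, FDR 0.000201). TRAPPC6A, a vesicle tethering factor (-0.68, SE 0.11), the mannosyltransferase ALG12 (-0.52) and the autophagy protein TECPR1 (-0.52) followed, at FDR 0.000243. All of the differences in change printed here were negative, that is, the change was the more positive one in OXYT. ZMIZ1, which ran opposite, is not among them.

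**Figure D3:**
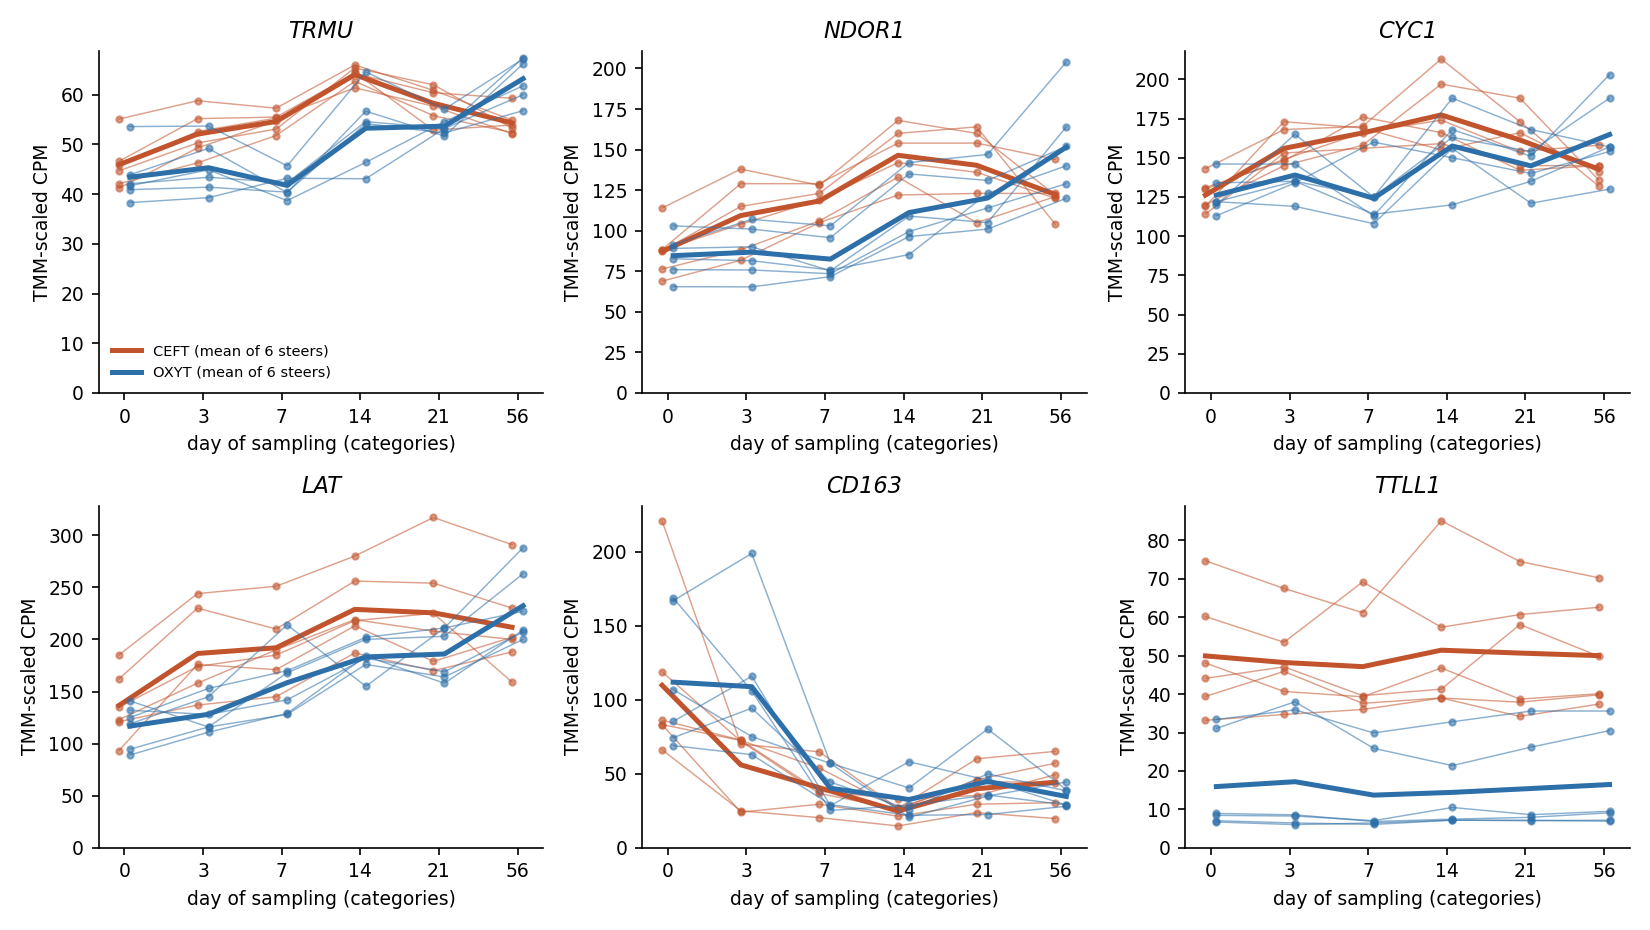
Levels of named genes (y axis, CPM) for TRMU, NDOR1, CYC1, LAT, CD163 and TTLL1 by day (x axis) in each steer (thin lines) with the mean of 6 steers (thick lines), CEFT in red and OXYT in blue. TRMU was higher in every CEFT steer on day 7, at 51.8 to 57.3 CPM against 38.7 to 45.7, and its median was lower in CEFT on day 56.

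Over the 2437 genes called for both late changes, which include the shared day 56 libraries and had the same sign in all 2437, the groups' own courses can be set side by side as a description. These genes were chosen by the late changes themselves, so opposite courses of the groups follow in part from that choice. For the 1174 genes with the higher CEFT change, the median log2 change from day 0 in CEFT was -0.406 on day 3 and -0.344 on day 7, and then -0.563, -0.598 and -0.32 on days 14, 21 and 56. In OXYT the same genes stood at -0.105 and -0.026 on days 3 and 7, and at -0.327, -0.342 and -0.573 on days 14, 21 and 56. Their median was thus low in CEFT from day 3, with similar values on days 7 and 56, and in OXYT it was near 0 until day 7 and lowest on day 56. The 1263 genes with the lower CEFT change mirrored this, at 0.276, 0.335, 0.48, 0.421 and 0.294 in CEFT and 0.086, 0.091, 0.34, 0.324 and 0.54 in OXYT. Over all genes tested the medians lay between -0.015 and 0.029. Without the Oxyt5 day 7 library 5451 genes differed in the change from day 7 to day 56 (28.6%).

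**Figure D4:**
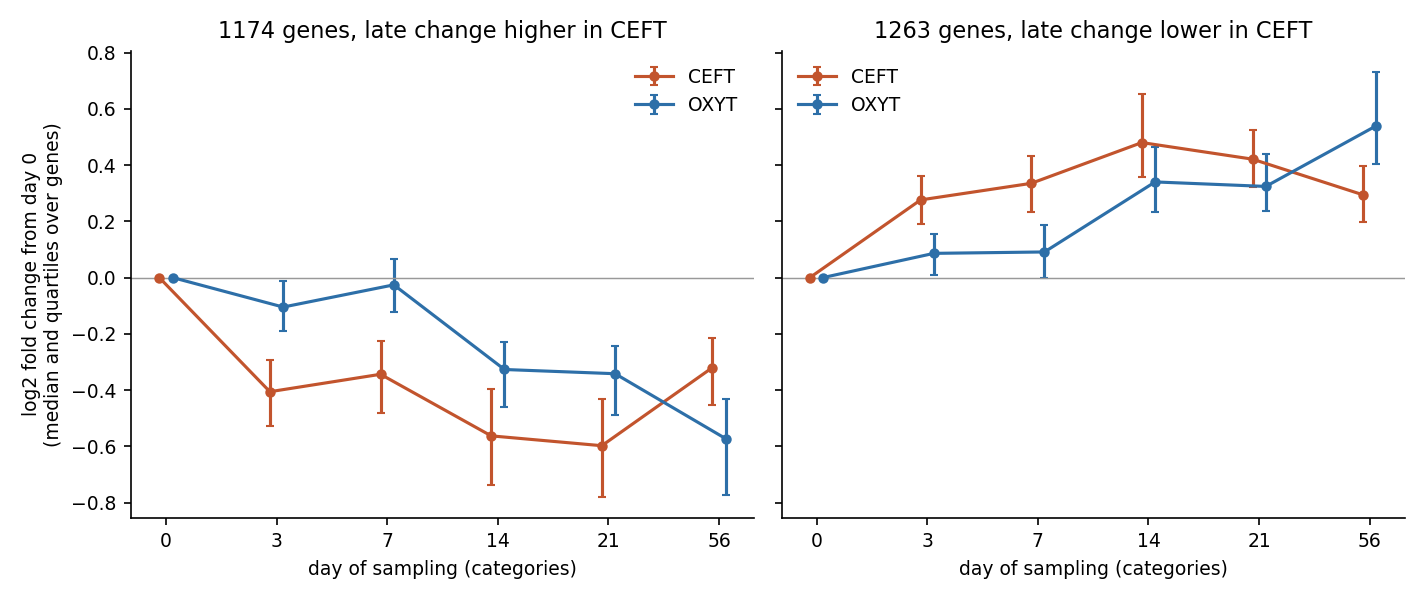
Median log2 change from day 0 (y axis) by day (x axis) for the 1174 genes with the higher and the 1263 genes with the lower late change in CEFT, CEFT in red and OXYT in blue, with bars for the quartiles over genes. The CEFT medians left 0 by day 3 and the OXYT medians mostly from day 14, reaching -0.573 and 0.54 on day 56. The genes were chosen by their late changes in these same libraries.

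Many genes of mitochondria and of the ribosomes were lower in CEFT in the late change. From day 7 to day 56, 37 of 79 nuclear genes of oxidative phosphorylation were lower and 1 higher, against 11.5% and 11.1% of all genes, and the list's median difference was -0.36 against a median within 0.03 of 0 over all genes. Of 77 genes of the mitochondrial ribosome, 36 were lower and 0 higher (median -0.32). Of 83 genes of the cytosolic ribosome, 36 were lower and 0 higher (median -0.57), and of the 13 protein-coding genes of mitochondrial DNA, 7 were lower and 0 higher (median -0.71). Leaving out the Oxyt5 day 7 library, with its high ribosomal level, gave 51, 49, 59 and 7 lower genes. Within CEFT, the oxidative phosphorylation genes that had risen from day 0 numbered 32, 44, 58, 41 and 8 of 79 over the 5 later samplings in order, where 14%, 14.4%, 22%, 20.4% and 14.1% of all genes had risen. Within OXYT they numbered 0, 2, 40, 16 and 38, where 1.52%, 4.4%, 15.3%, 15.1% and 22.3% of all genes had risen. The CEFT count on day 56 was thus below the share over all genes, as were the OXYT counts on days 3 and 7. Falls numbered 3, 0, 2, 6 and 1 in CEFT and 0, 0, 0, 3 and 4 in OXYT.

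CYC1 shows the size of these changes. On day 0 it was at 114 to 143 CPM in CEFT (median 125) and 113 to 146 in OXYT (median 122). On day 7 CEFT stood at 156 to 176 CPM (median 168), while 5 OXYT steers lay at 108 to 125 and Oxyt5 at 160. On day 56 CEFT was back at 132 to 158 CPM (median 143) and OXYT had reached 130 to 203 (median 157). Its difference in the change from day 7 to day 56 was -0.61 (SE 0.11, FDR 0.000177). SDHB, the iron-sulfur subunit of complex II, was at 164 ± 8.04 against 129 ± 19.9 CPM on day 7 and at 149 ± 13 against 158 ± 16.1 on day 56 (-0.42, SE 0.10, FDR 0.00289), with SDHD of the same complex at -0.42 (SE 0.10, FDR 0.00205) and NDUFA10 at -0.36 (SE 0.08, FDR 0.0023).

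COX1, the catalytic subunit of complex IV and encoded in mitochondrial DNA, was the most abundant gene described here, at 7900 to 22500 CPM in CEFT (median 15600) and 9950 to 11800 in OXYT (median 11400) on day 7. On day 56 it stood at 6680 to 19200 (median 13800) and 13500 to 18800 (median 16100). The CEFT range therefore covered the OXYT range on both days, and the difference in change within steer was -0.77 (SE 0.21, FDR 0.00779). ND2, of complex I, differed by -0.75 (SE 0.22, FDR 0.0126). MRPS12, which carries the decoding centre of the small mitochondrial subunit, was at 28.6 ± 3.87 against 22.9 ± 3.61 CPM on day 7 and 26 ± 1.85 against 29.7 ± 4.29 CPM on day 56 (-0.51, SE 0.12, FDR 0.00247). MRPL45 (-0.50), MRPS22 (-0.44) and MRPL53 (-0.31) also passed, at FDR 0.00268 to 0.00294. On day 0 MRPS12 had stood at 23.4 and 23.7 CPM.

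In the cytosolic ribosome, RPL38 was at 243 to 363 CPM in CEFT (median 248) and 150 to 322 in OXYT (median 195) on day 7, with Oxyt5 at 322 and the other 5 OXYT steers at or below 209. On day 56 its medians were 227 and 363 CPM (difference in change -0.94, SE 0.23, FDR 0.00379). RPS21 (-1.56, SE 0.41, FDR 0.00639), RPL21 (-1.27, SE 0.34) and RPL27 (-1.18, SE 0.32) changed more. Summed over the list, cytosolic ribosomal genes on day 56 had medians of 57000 CPM in CEFT and 73800 in OXYT. Between day 3 and day 56 the direction of these lists was less even: oxidative phosphorylation had 24 lower and 4 higher genes, the mitochondrial ribosome 23 and 4, the cytosolic ribosome 33 and 2, and mitochondrial DNA 0 and 0. The exceptions included MRPL1 (1.72, SE 0.38, FDR 0.00232), MRPS36 (0.96, SE 0.22, FDR 0.00333), UQCRB of complex III (0.66, SE 0.16, FDR 0.00508) and NDUFS1 of complex I (0.33, SE 0.08, FDR 0.00432).

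On day 7 alone the signs of these lists already leaned to CEFT, though 1 member was called. Positive log2 differences were found for 70 of 79 oxidative phosphorylation genes (median 0.21), 62 of 77 mitochondrial ribosomal genes (median 0.18) and 70 of 83 cytosolic ribosomal genes (median 0.21). On day 56 only 18 of 79, 18 of 77 and 16 of 83 were positive, with medians of -0.13, -0.13 and -0.33. Day 0 gave 37 of 79, 32 of 77 and 74 of 83, so the cytosolic ribosomal genes leaned to CEFT before treatment as well (median 0.12). The called member was MRPS15 (4.04, FDR 0.0697), which had 0.0165 to 0.89 CPM in CEFT and 0.0184 to 0.0847 in OXYT and so rested on very low levels. Of 19 genes of the integrated and mitochondrial stress response, 2 were higher from day 7 to day 56, among them HSPA9 (0.34, SE 0.10, FDR 0.0194), and 2 lower, TRIB3 (-0.35, SE 0.10, FDR 0.00873) and CLPP (-0.34, SE 0.13, FDR 0.0698). These counts were near the share over all genes. From day 3 to day 56, 0 were higher and 4 lower (21.1%, against 11% of all genes), led by TRIB3 (-0.57, SE 0.10, FDR 0.000288).

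**Figure D5:**
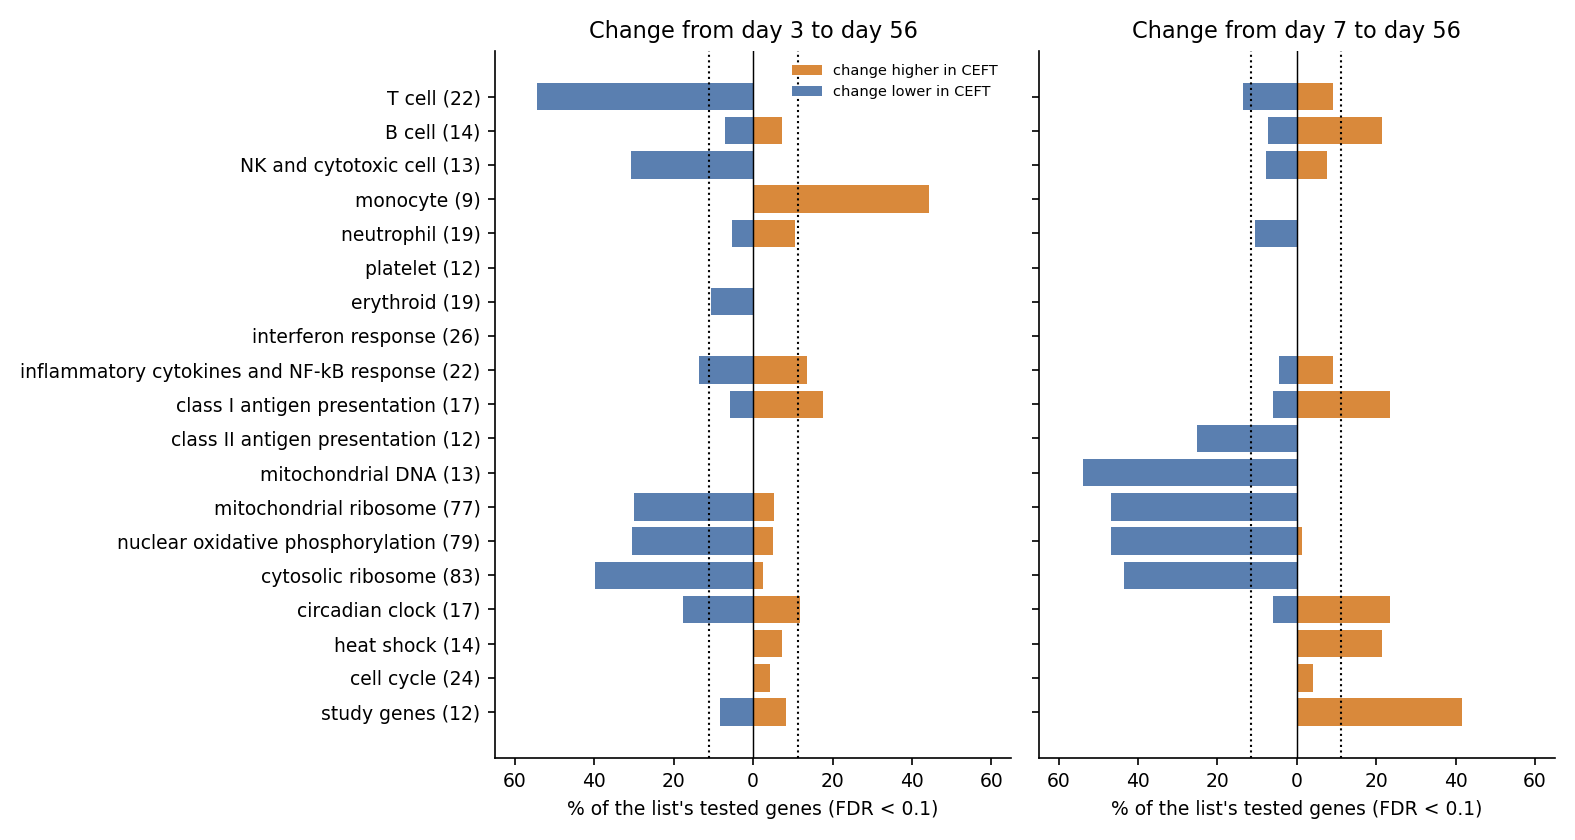
Share of the tested members of each gene list (x axis, percent) called higher (orange, to the right) or lower (blue, to the left) in CEFT relative to OXYT, in the change from day 3 (left) and from day 7 (right) to day 56, with dotted lines at the shares over all genes. Calls in the ribosomal and oxidative phosphorylation lists were nearly all lower (37 of 79 oxidative phosphorylation genes from day 7), and T cell markers were lower from day 3 (12 of 22).

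Markers of T cells and of cytotoxic cells followed the same late pattern from day 3, and monocyte markers the opposite one. Of 22 T cell markers, 12 were lower and 0 higher in the change from day 3 to day 56 (median -0.44, against 11% lower and 11.2% higher over all genes). Their summed level on day 3 was 3930 to 5780 CPM in CEFT (median 4610) and 2930 to 4150 in OXYT (median 3460), and on day 56 it was 4360 to 6640 (median 4880) and 4960 to 6580 (median 5080). CD3E, a chain of the T cell receptor complex, stood at 631 to 1280 CPM in CEFT (median 799) and 451 to 658 in OXYT (median 552) on day 3, and at 741 to 1350 (median 852) and 814 to 1210 (median 977) on day 56. The CEFT and OXYT ranges overlapped on both days, and the difference in change was -0.66 (SE 0.12, FDR 0.000627). LAT, the scaffold of T cell receptor signalling (-0.66, SE 0.12, FDR 0.000444), the kinase LCK (-0.59, SE 0.12, FDR 0.000838) and CD247, the receptor's zeta chain (-0.50, SE 0.10, FDR 0.00104), changed likewise. Against day 0, 12 of the 22 T cell markers had risen and 1 had fallen in CEFT by day 3 (14% and 14.9% of all genes), and 0 had moved in OXYT, where few genes of any kind were called (1.52% and 1.58%). By day 7, 9 had risen in CEFT and 15 in OXYT, against 14.4% and 4.4% of all genes, and 0 had fallen in either group.

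Of 13 NK and cytotoxic cell markers, 4 were lower and 0 higher from day 3 to day 56 (median -0.38). The shares over all genes were 11% lower and 11.2% higher. The cytotoxic markers called are named first. They were the granule proteins GZMM (-1.10, SE 0.20, FDR 0.000543), CTSW (-0.95, SE 0.20, FDR 0.00157), NKG7 (-0.66, SE 0.21, FDR 0.0278) and PRF1 (-0.47, SE 0.19, FDR 0.0925). GZMM stood at 7.52 to 26.5 CPM in CEFT and 6.82 to 12.8 in OXYT on day 3, and at 7.74 to 35.9 and 10.7 to 25.4 on day 56, with wide overlap on both days. Of 9 monocyte markers, 4 were higher and 0 lower (median 0.60): CD163, the hemoglobin scavenger receptor (1.24, SE 0.29, FDR 0.00409), the protease CTSS (0.72, SE 0.18, FDR 0.00444), lysozyme LYZ (0.78, SE 0.21, FDR 0.00804) and the matrix proteoglycan VCAN (0.98, SE 0.27, FDR 0.0117). CD163 was at 24.1 to 72.8 CPM in CEFT (median 71.1) and 63 to 199 in OXYT (median 100) on day 3, against 66.3 to 221 and 69.1 to 169 CPM on day 0. On day 56 both groups were low, at 19.8 to 65.2 (median 46.7) and 28.1 to 44.5 CPM (median 33.7). Against day 0, 2 of the 9 had fallen in CEFT and 0 in OXYT by day 3, close to the shares over all genes (14.9% and 1.58%), and 8 of 9 had fallen in each group by day 56, against 14.9% and 23.3% of all genes.

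From day 7 to day 56 the leukocyte markers no longer leaned one way. Of the T cell markers 2 were higher and 3 lower, of the cytotoxic markers 1 and 1, and of the monocyte markers 0 and 0. The shares over all genes were 11.1% higher and 11.5% lower from day 7, and 11.2% and 11% from day 3. The T cell and cytotoxic counts from day 7 were near those shares. Among 14 B cell markers 3 were higher and 1 lower: PAX5, the factor that fixes B cell identity (1.09, SE 0.22, FDR 0.000435), CR2 (0.76, SE 0.20, FDR 0.00711) and EBF1 (0.49, SE 0.19, FDR 0.0661) against the kinase BLK (-0.59, SE 0.16, FDR 0.00947). PAX5 had been at 27.5 to 65.8 CPM in CEFT and 39.4 to 123 in OXYT on day 7, and at 47.3 to 79.8 and 29.7 to 72.4 on day 56. From day 3 to day 56 the B cell list gave CR2 higher and BLK lower. Class II antigen presentation had 3 of 12 lower from day 7 to day 56 and 0 higher (median -0.37), namely BOLA-DMB (-0.55, SE 0.15, FDR 0.00751), BOLA-DRA (-0.44, SE 0.14, FDR 0.0253) and the transactivator CIITA (-0.30, SE 0.13, FDR 0.0959), and 0 of 12 from day 3. Class I antigen presentation had 4 of 17 higher and 1 lower from day 7, with the chaperone CANX at 0.41 (SE 0.11, FDR 0.00619) and the immunoproteasome subunit PSMB9 at -0.49 (SE 0.18, FDR 0.0525), and 3 and 1 from day 3.

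Markers of other cells and tissues in the tube are given for comparison. The counts stand beside shares over all genes of 11.2% higher and 11% lower from day 3 to day 56. From day 7 to day 56 the shares were 11.1% and 11.5%. Hemoglobin took 0.0406 to 6.13% of CEFT and 0.0214 to 1.35% of OXYT libraries on day 3, 0.0113 to 3.5% and 0.0145 to 6.57% on day 7, and 0.0208 to 12% and 0.321 to 1.9% on day 56. With the hemoglobin genes left out before scaling, the late changes gave 4243 and 4320 genes. Of 19 erythroid genes, 2 were lower from day 3 to day 56 (HBQ1 and AHSP, median of the list -1.24), and 0 passed from day 7 (median 0.56). Of 12 platelet genes 0 passed in either late change, though 11 of 12 were below 0 on day 0 (median -0.64) and 12 of 12 on day 7 (median -0.81), none of them called, so the lower platelet values of CEFT were there before the injection. Of 19 neutrophil genes 2 were higher (S100A12 at 1.04, SE 0.39, FDR 0.0638, and VNN2 at 0.55, SE 0.20, FDR 0.0586) and 1 lower from day 3, and 0 and 2 from day 7. The lower ones were the cathelicidins CATHL3 and CATHL4, which had a median at or below 0.355 CPM in each group on each day. Eosinophil and basophil genes gave 0 from day 3 and 1 of 10 from day 7 (ALOX15, 1.62, SE 0.58, FDR 0.0497). Of 5 tested WC1 and gamma delta genes, WC1.3 was lower from day 3 (-0.69, SE 0.19, FDR 0.012) and CD163L1, at 0 in many libraries, was called higher. From day 7 to day 56 this list gave 0 calls. Skeletal muscle genes gave 3 of 11 lower from day 3 (TNNT3 at -2.45, SE 0.46, FDR 0.000755, MYLPF and ACTA1) and TNNT3 alone from day 7, beside the high day 3 muscle level of Ceft5 and Ceft10. Skin and hair genes gave 0 of 13 in both.

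Lists of signalling, stress and clock genes are given as counts of genes called higher and lower in CEFT. Over all genes 11.1% were higher and 11.5% lower from day 7 to day 56, and 11.2% and 11% from day 3. From day 7 to day 56, inflammatory cytokine and NF-kB genes gave 2 higher and 1 lower of 22, with NFKB1 at 0.52 (SE 0.15, FDR 0.011) and TNF at -0.28 (SE 0.10, FDR 0.0503). From day 3 they gave 3 and 3, with TNF at -0.45 (SE 0.10, FDR 0.00293) and NFKBIZ at 0.72 (SE 0.19, FDR 0.00734). Immediate early genes gave 3 and 0 of 21 from day 7 (EGR3, KLF6 and JUN) and 2 and 3 from day 3, heat shock genes 3 and 0 of 14 (HSP90AA1, BAG3 and HSPH1) and 1 and 0, cell cycle genes 1 and 0 of 24 in both, metalloproteinases and their inhibitors 1 and 1 of 14 and 1 and 0, and glucocorticoid response genes 0 and 0 of 11 and 1 and 0. Of 17 circadian clock genes 4 were higher and 1 lower from day 7, with NR1D2 at 0.69 (SE 0.21, FDR 0.0203) and DBP at -0.44 (SE 0.12, FDR 0.0093), and 2 higher and 3 lower from day 3, with DBP at -0.66 (SE 0.12, FDR 0.000605). From day 7, the share higher was 23.5% for clock, 21.4% for heat shock and 14.3% for immediate early genes, above the 11.1% of all genes, on 3 or 4 genes each.

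The interferon response list had 0 of 26 genes called in either late change or on any day. Within groups it was lower later in the trial: by day 56, 15 of the 26 had fallen from day 0 in CEFT (median -1.31) and 21 in OXYT (median -1.71). Over all genes, 14.9% had fallen in CEFT and 23.3% in OXYT by then. Summed over the list, the highest steers were Ceft10 at 35000 CPM and Oxyt5 at 23000 CPM on day 0, and Oxyt9 at 18900 CPM on day 14. On day 3 the sums spanned 2330 to 14500 CPM in CEFT and 3750 to 12200 in OXYT, and on day 56 they spanned 2090 to 4300 and 1620 to 2870 CPM. On day 14, 25 of the 26 genes were below 0 (median -0.83), with sums of 1970 to 3560 CPM in CEFT and 2180 to 18900 in OXYT. The other 5 OXYT steers lay between 2180 and 4410 CPM, and the part of Oxyt9 in that median was not tested.

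The study chose 12 genes of T cell receptor, NF-kB, class I and interleukin-17 signalling from these same samples against the untreated steers, so they are not independent evidence. From day 7 to day 56, 5 of the 12 were higher in CEFT relative to OXYT and 0 lower (median 0.39), against 11.1% and 11.5% of all genes. Among them were NFATC2 (0.62, SE 0.11, FDR 6.28e-05), TAB2, an adaptor of TAK1 (0.63, SE 0.14, FDR 0.00131), SKP1 (0.57, SE 0.22, FDR 0.0646) and MALT1, a paracaspase of NF-kB signalling (0.28, FDR 0.0763). TAB2 stood at 58.3 to 65.6 CPM in CEFT (median 62) and 65.3 to 100 in OXYT (median 87.7) on day 7, where the lowest OXYT value was that of Oxyt5. On day 56 it was at 50.7 to 74.4 (median 66) and 41 to 75.5 CPM (median 58.1). In CEFT TAB2 was at 89.4 ± 9.17 CPM on day 0 and 62.1 ± 2.41 CPM on day 7, whereas OXYT was at 92.4 ± 14.8 and 86.2 ± 14.1 CPM on those days and at 58.4 ± 12.5 on day 56. From day 3 to day 56 TAB2 was higher (0.54, SE 0.14, FDR 0.00754) and CD3G lower (-1.32, SE 0.55, FDR 0.096).

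A last comparison asked which genes differed throughout days 3 to 56. A limma voom fit with steer as a random block gave 160 genes at FDR 0.05 (0.840%), 89 higher and 71 lower in CEFT. When the 5 libraries of each steer were summed and the 12 steers compared, edgeR gave 0 genes (0%), with 1655 at an unadjusted p below 0.05 and a smallest FDR of 0.439. The mixed fit uses 1 correlation, 0.387, for all genes, whereas the sums count each steer once. In simulated data the mixed fit gave too many calls for genes that differ between steers. TTLL1, a tubulin polyglutamylase, had the smallest FDR (2.0, SE 0.19, FDR 3.13e-11). It stood at 33.2 to 74.7 CPM in CEFT on day 0, before treatment, and at 6.72 to 33.4 in OXYT, where Oxyt5 and Oxyt9 had 33.4 and 31.1 and the other 4 steers 6.72 to 8.94. On day 56 the ranges were 37.4 to 70.3 and 6.91 to 35.6 CPM, so the difference was there before the injection, and the per-steer sum gave 1.69 with FDR 0.563. KCNIP3 (0.90, SE 0.13, FDR 1.1e-05), TRPM4 (1.15, SE 0.20, FDR 0.00158), LOC107133304 (3.00, SE 0.51, FDR 0.00122), LOC107131849 (0.71, SE 0.13) and LOC790271 (-1.57, SE 0.28) followed.

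CXCL8, the neutrophil-attracting chemokine among the study's 12 genes, was called in the mixed fit (-1.41, SE 0.37, FDR 0.0434) and not over the per-steer sums (FDR 0.563). It was at 1.99 to 7.44 CPM in CEFT (median 5.28) and 2.54 to 36.7 in OXYT (median 17.4) on day 3, and at 1.47 to 6.33 (median 2.38) and 1.36 to 9.35 (median 6.68) on day 56. The OXYT median was the higher one on every day, day 0 included (14.1 against 8.02 CPM), and the groups overlapped on each day.

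Days 0, 14, 21 and 56 had no call. On day 0 they were RPL3L, a ribosomal protein of muscle (-1.29, 35.7 to 95.9 CPM in CEFT and 105 to 245 in OXYT), LOC100336941 (-3.31) and LOC515736 (5.13), all at FDR 1. On day 14 they were PSAP, the saposin precursor (4.86), the adhesion protein NPTN (-0.37, 43.1 to 49.1 and 53.3 to 65 CPM) and the platelet granule gene NBEAL2 (2.92), at FDR 0.543. The level listed for PSAP ran from 22.7 to 504 CPM in CEFT and 1.53 to 13.4 in OXYT, without overlap. On day 21 FAM21A (-1.38), PDCD1LG2 (2.75) and IPO4 (2.52) had FDR 0.692, and on day 56 PCM1 (2.97), PSAP (4.49) and DLEC1 (-0.59) had 0.629. For the changes from day 0 the genes of smallest p were LOC100849865 (1.16), ISY1 (0.33) and LOC112442408 (1.54) on day 14, at FDR 0.552. They were MAGT1 (-0.78), MAPK9 (-0.48) and FBXO28 (-0.43) on day 21, at FDR 0.823. On day 56 they were SFI1 (-0.64, SE 0.13) and ZNF787 (-0.46, SE 0.10), both at FDR 0.13, and ZNF74 (-0.46, FDR 0.217).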

How the data were processed

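Whole blood of 12 steers was collected in PAXgene tubes on 6 days, and poly(A) RNA was sequenced as stranded paired reads on 1 lane. Per the labels, the authors trimmed reads with Trimmomatic 0.39 after FastQC 0.11.9, aligned them to ARS-UCD1.3 with HISAT2, assembled transcripts with StringTie 2.2.0 and deposited raw counts per gene. The deposited counts are estimated from transcript coverage, so reads of overlapping or near-identical genes can be split or moved between gene names, and a gene can be read at 0 where its transcripts were given to another name.

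From these counts, genes with CPM above 0.2 in at least 12 libraries of the whole series were kept and scaled by TMM. edgeR 4.0.16 (R 4.3.3) compared 6 with 6 libraries on each day (FDR 0.1). A fit of all 72 libraries with steer as a fixed replicate block gave the changes between days (FDR 0.1) and the course (FDR 0.05), and limma 3.58.1 with voom and steer as a random block gave days 3 to 56 (FDR 0.05). The pairing is by animal: deviations of libraries of the same steer correlated at a median of 0.343, with 12 of 12 steers above 0.1, against -0.07 between steers, and for 72 of 72 libraries the nearest library was one of its own steer. The same number in both groups names different steers, and 0 libraries were identical. P-values of the single days and of the per-steer sums measure the spread between the steers of 1 pen per treatment. In the fits of changes and course, differences in level between steers are taken out. Their p-values rest on how the steers of 1 pen per treatment differ in their changes, pooled over the 72 libraries. The voom fit uses 1 correlation between libraries of a steer for all genes. Intervals are standard errors of the fits.

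Named genes were, for each day and change test, up to 6 called genes of largest log2 difference with a mean of at least 1 CPM, or the 3 of smallest p where fewer than 3 passed, the 6 of smallest p for the course, for days 3 to 56 and for the added late changes, up to 4 called members of each gene list of smallest p, the genes called on 3 or more days (none) and the study's genes. Day 7 genes of cell death and lymphocyte regulation, and the examples of low-level genes, were chosen after their values were seen. The comparison, the lists and the tests were chosen with earlier results of these data known. Alternatives were other size factors, no filter, the likelihood ratio test, DESeq2 1.42.0, hemoglobin genes left out, no block and leaving out each steer, and, added after seeing the data, sums per steer, the late pairs of days and the fits without the Oxyt5 day 7 library. Scripts were tested on simulated data, where the voom fit of days 3 to 56 gave too many calls for genes that differ between steers. Untreated steers and the other antibiotics were not used here, since they were sequenced on other lanes or belong to other comparisons. The values of 1 listed gene are not reported here.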

Additional observations from a re-analysis of the deposited data

Results flagged for a closer look

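Of 150 groups of 6 libraries or steers tested for a sample far from the rest, 16 held one, and chance gives about 1 in 20. In depth, Ceft10 on day 7 stood apart with 57 M counts, and in hemoglobin Ceft4 on day 56 with 12%. Oxyt5 on day 7 stood apart in its distance from the values fitted by steer and by treatment and day, 0.733 on the log2 scale. That distance touches each day 7 result. Summed skin and hair genes were far from the group in Ceft3 on day 14 (269 CPM), Ceft4 on day 21 (141 CPM), Ceft6 on day 56 (16.7 CPM), Oxyt6 on day 0 (9.33 CPM), Oxyt1 on day 14 (261 CPM) and Oxyt2 on day 56 (34.7 CPM). Summed skeletal muscle genes were far from the group in Ceft6 on days 7, 14 and 56 (66.6, 75.1 and 75.4 CPM). Among named genes, single steers stood apart for DPY19L3 (Ceft8 on day 7, 0.052 CPM), FAM133B (Oxyt5 on day 7, 0.154 CPM), PSAP (Ceft4 on day 14, 504 CPM) and PDCD1LG2 (Oxyt1 on day 21, 2.1 CPM).

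The change over time differed between the groups by a test of the difference itself for 3 genes from day 0 to day 3, 181 from day 0 to day 7, 4234 from day 3 to day 56 and 4307 from day 7 to day 56, and the course differed for 2115 genes (edgeR). The named genes among them were MYOZ1 (2.86), PYGM (1.31) and ASIC1 (0.98) from day 0 to day 3, and LOC515736 (-10.28), LOC100336208 (-6.62), LOC112446407 (3.81), TCTN3 (-1.66), PXMP2 (1.39) and LOC107131335 (-1.28) from day 0 to day 7, as log2 differences in change. From day 3 to day 56 they were ZNF787 (-0.66), ZNF777 (-0.51), TEX264 (-0.57), TRAPPC6A (-0.68), ALG12 (-0.52) and TECPR1 (-0.52), and from day 7 to day 56 TRMU (-0.60), ZNF787 (-0.80), NDOR1 (-0.81), PMM1 (-0.75), TOP3B (-0.73) and NICN1 (-0.68). The cause of these differences was not tested.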

How the results depend on the processing

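The late changes and the course had 690 or more calls in every fit with steer as a replicate block, whereas the single-day and early counts depended on the setting, with causes that were not tested. The likelihood ratio test gave 24, 241, 247, 17, 12 and 6 genes for the samplings from day 0 to day 56 in order, and 52 and 4 for the changes to days 3 and 56. DESeq2 gave 17, 1233, 1525, 61, 17 and 52 in the same order, 272, 707, 34, 14 and 86 for the changes to days 3, 7, 14, 21 and 56, and 3355 for the course. In 1 fit of all libraries with no replicate block the days gave 1, 1108, 914 and 1 genes on days 0, 3, 7 and 14, the change to day 7 gave 1, the course 27, days 3 to 56 4002, and the late changes from days 3 and 7 gave 123 and 1233. No filter gave 0 on days 3 and 7 and for the change to day 3, 26 for the change to day 7 and 435 for days 3 to 56, and leaving out hemoglobin genes gave 0 on day 3. Without the Oxyt5 day 7 library there were 1961 genes on day 7, 11 and 1777 for the changes to days 3 and 7, and 3515 for the course. Sums per steer gave 0 for days 3 to 56. Leaving out a steer gave 0 to 1, 0 to 525, 0 to 2034, 0 to 2, 0 to 0 and 0 to 1 genes on the 6 days, 0 to 247, 1 to 1739, 0 to 0, 0 to 1 and 0 to 20 for the changes, 690 (without Oxyt4) to 3141 (without Oxyt5) for the course, 58 (without Oxyt4) to 747 (without Ceft8) for days 3 to 56, where 11 of the 12 steers moved the count by over 1.5 times, 2625 (without Ceft6) to 4667 from day 3 to day 56 and 2642 (without Oxyt4) to 5167 from day 7 to day 56. The course also fell by over 1.5 times without Oxyt6 (742), Oxyt9 (1001), Ceft6 (1006) and Ceft5 (1224). Of 3636 values for named genes under other settings, 2921 stayed on their side of the threshold in the same direction, 672 lost and 43 gained a call, and 0 turned.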
